A study of Mus musculus with 18 samples.

Results

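Antigen presentation genes of both MHC classes were followed in sorted mouse mammary epithelial cells: 10 of the 27179 genes in the count table, matched by their Entrez identifiers. Of these, 5 belong to the class I pathway (H2-K1, H2-D1, B2m, Tap1 and Nlrc5) and 5 to the class II pathway (Cd74, H2-Aa, H2-Ab1, H2-Eb1 and Ciita). The genes were chosen with results from these same libraries known, so their levels and fold changes are given as descriptions without a p-value. The number of the 10 past the test threshold is printed below, and nothing is read from it. Tests of single genes are given only outside the 10. The lists those genes come from were also chosen with earlier results of these data known.

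RNA was sequenced from female mice aged 14 weeks, 3 of them mutant and 3 wildtype. The mice labelled as mutant (KO below) carried MMTV-cre(T/+) with the alleles Brca2(delta/delta) and Trp53(delta/+). By these labels, Cre recombinase, driven by the MMTV promoter, deleted Brca2 on both chromosomes and Trp53 on 1 of its chromosomes. The counts of both genes are given with the marker values below. The wildtype controls (WT) carry the same strain label as the mutants, MMTVcre Brca2(fl/fl) Trp53(fl/+), so the labels do not settle which of these alleles a control mouse has, and the sample titles call the mutants a knockdown. From each mouse, basal cells (gate P5), luminal progenitors (LP, gate P7) and mature luminal cells (ML, gate P8) were sorted, which gave 18 libraries in 6 groups of 3, with totals of 5973389 to 39194603 counts. Libraries with the same genotype and replicate number come from 1 mouse.

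Class I molecules display peptides from inside the cell to CD8 T cells and are made by nearly all nucleated cells. H2-K1 and H2-D1 encode classical heavy chains, B2m the light chain they share, Tap1 a subunit of the transporter that carries peptides into the endoplasmic reticulum, and Nlrc5, on chromosome 8, a coactivator of class I promoters. Class II molecules display peptides from endosomes to CD4 T cells, and are best known from dendritic cells, macrophages and B cells; epithelial cells can make them too, typically under interferon gamma. H2-Aa encodes the alpha chain and H2-Ab1 the beta chain of I-A, H2-Eb1 the beta chain of I-E, Cd74 the invariant chain that guides class II chains to endosomes, and Ciita the coactivator of class II promoters.

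Of the 10 genes, 6 lie on chromosome 17, in the mouse H2 region, and positions are given on GRCm38.p6, the patch release of the build named mm10 in the submitters' processing notes. H2-K1 spans chr17:33996012-34000619, Tap1 chr17:34187556-34197225, H2-Ab1 chr17:34263227-34269418, H2-Aa chr17:34282744-34287823, H2-Eb1 chr17:34305867-34316674 and H2-D1 chr17:35263094-35267497. B2m lies on chromosome 2 (122147687 to 122153082) and Ciita on chromosome 16 (10480014 to 10531064). Promoter sequence from RefSeq (GRCm38.p6) was at hand for 6 of the 10 genes: H2-K1, H2-D1, B2m, Tap1, H2-Aa and H2-Eb1. The 200 bases before the annotated start are shown for 2 class I and 2 class II genes, because in LP cells KO lay above WT without overlap for H2-D1, B2m and H2-Aa and not for H2-Eb1. Capitals mark matches, on either strand, to 4 motifs: GAANNGAAA and a pair of GAAA with 2 free bases between them (the GAAA pair below), both of them spacings of the interferon-stimulated response element, TGACG, the core of the X2 box of MHC promoters, and ATTGG, the core of the Y box bound by NF-Y. The motifs were chosen with the sequences in view.
H2-D1, chr17:35262894-35263093, plus strand: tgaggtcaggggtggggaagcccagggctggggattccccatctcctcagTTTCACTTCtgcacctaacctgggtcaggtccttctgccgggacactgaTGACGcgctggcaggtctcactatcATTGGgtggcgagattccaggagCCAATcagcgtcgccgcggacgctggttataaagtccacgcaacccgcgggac
B2m, chr2:122147487-122147686, plus strand: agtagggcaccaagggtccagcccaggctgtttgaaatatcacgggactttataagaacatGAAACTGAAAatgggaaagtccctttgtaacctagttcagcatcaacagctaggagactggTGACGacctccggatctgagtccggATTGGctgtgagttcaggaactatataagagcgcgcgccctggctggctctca
H2-Aa, chr17:34287824-34288023, minus strand: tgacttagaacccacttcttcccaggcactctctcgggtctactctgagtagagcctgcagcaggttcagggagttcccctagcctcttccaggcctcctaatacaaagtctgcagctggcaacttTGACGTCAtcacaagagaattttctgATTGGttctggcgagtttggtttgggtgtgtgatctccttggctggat
H2-Eb1, chr17:34305667-34305866, plus strand: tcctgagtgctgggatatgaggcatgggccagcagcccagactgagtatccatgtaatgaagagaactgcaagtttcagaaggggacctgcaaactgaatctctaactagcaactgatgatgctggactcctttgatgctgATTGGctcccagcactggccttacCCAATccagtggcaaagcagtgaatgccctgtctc

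The printed H2-D1 window holds GAANNGAAA on the minus strand at -150, counted in bases from the start to the first base of the match, with TGACG at -101 and ATTGG on both strands, at -76 and -53. The B2m window holds the GAAA pair at -139, TGACG at -78 and ATTGG at -53. In the H2-Aa window the TGACG core is read on both strands at -74 and -71, as the palindrome TGACGTCA, with ATTGG at -48 and neither interferon spacing. The H2-Eb1 window holds ATTGG on both strands, at -59 and -35, and none of the other motifs. The Tap1 window, not printed, holds TGACG at -86 and none of the other motifs. The H2-K1 window, not printed and lying inside the gene span given above, holds GAANNGAAA, TGACG and ATTGG. KO lay above WT without overlap in LP for both of these genes as well. Whether a motif goes with the genotype difference was not tested. Of 27025 promoters cut to the same 200 bases, 5% hold GAANNGAAA, 2.33% the GAAA pair, 15.8% TGACG and 30% ATTGG. A match to TGACG or ATTGG alone is thus common, and a match to an interferon spacing is less so.

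In CPM (counts relative to the total of the library, after TMM scaling), H2-K1, H2-D1 and B2m were abundant in every library, at 424 CPM or more, whereas Tap1 went down to 18.9, Nlrc5 to 12.6 and each of the 5 class II genes to 5 or below in at least 1 WT library. Per kilobase of transcript (RPKM, from the deposited gene lengths), B2m led in WT cells with 684 ± 179 in basal, 762 ± 211 in LP and 1899 ± 494 in ML (mean ± SD, n = 3 throughout). H2-D1 and H2-K1 followed, with mean RPKM between 489 and 903 in the WT groups. Cd74 stood at 29.4 ± 17.95 RPKM in basal WT, 4.19 ± 0.39 in LP WT and 0.84 ± 0.44 in ML WT, and Ciita at or below 0.247 in all 3. The 18.2 ± 9.4 RPKM of Tap1 and 15.8 ± 10.1 of Nlrc5 in basal WT cells did not separate from those of Cd74 there.

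B2m and H2-D1 ranked the WT populations in the opposite way to Cd74. B2m CPM was 1143 to 1919 in ML, above the 451 to 797 of LP and the 424 to 727 of basal cells, which overlapped; H2-D1 showed the same order, with 1276 to 1846 in ML. H2-K1 (701 to 1143 CPM) and Tap1 (18.9 to 85.1 CPM) overlapped across all 3 populations. Cd74 ran the other way, with 18.4 to 68.8 CPM in basal, 5.56 to 6.56 in LP and 0.475 to 1.58 in ML, 3 ranges with no overlap. H2-Aa (3.48 to 14.6 CPM) and H2-Ab1 (7.85 to 13.6 CPM) were also highest in basal WT cells; LP lay above ML for H2-Ab1 and overlapped it for H2-Aa, and H2-Eb1 overlapped across all 3 populations. Nlrc5 was the one class I gene highest in basal WT cells (47.9 to 186 CPM, against 12.6 to 36.7 in LP and 15.8 to 44.5 in ML). In bulk libraries a lower share of cells that make a transcript and less of it per cell cannot be told apart.

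**Figure D1:**
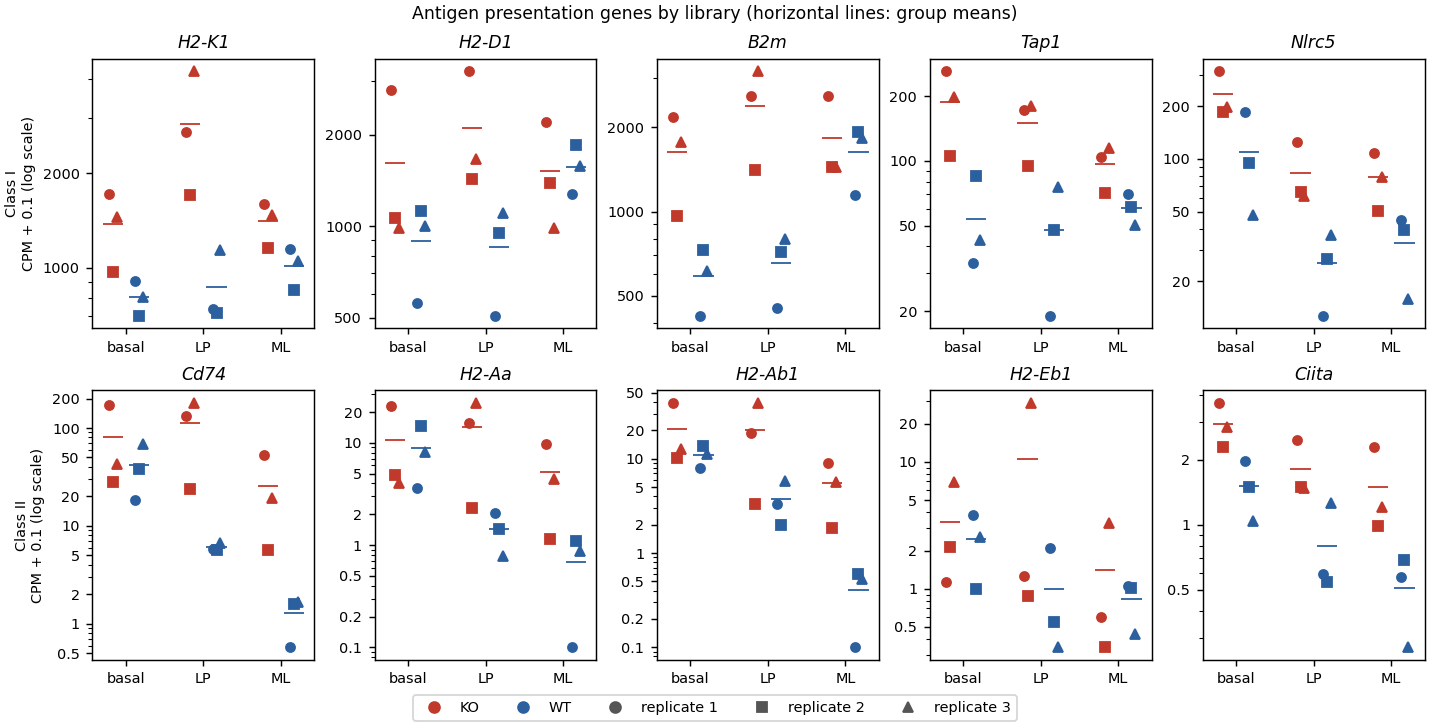
CPM plus 0.1 of the 10 genes in each of the 18 libraries on a log axis, with class I genes in the top row and class II genes in the bottom row; red marks KO, blue WT, marker shapes the replicate (the mouse) and horizontal lines the group means. All 3 LP KO libraries lie above all LP WT libraries for the 5 class I genes and for Cd74, H2-Aa and Ciita.

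In LP cells all 5 class I genes were higher in every KO mouse than in any WT mouse. H2-K1 CPM was 2716, 1707 and 4238 in LP KO mice 1, 2 and 3 and 737, 719 and 1140 in LP WT mice 1, 2 and 3, a fitted log2 fold change of 1.74 (SE 0.31). B2m CPM was 2590, 1410 and 3174 against 451, 714 and 797 in the same order, a log2 fold change of 1.87 (SE 0.37). Heavy and light chain thus both lay above every WT library in all 3 LP KO libraries. H2-D1 CPM was 3233, 1430 and 1668 in LP KO and 507, 948 and 1101 in LP WT (log2 fold change 1.31, SE 0.43). The transporter gene Tap1 was at 173, 94.8 and 181 CPM in LP KO and 18.9, 47.6 and 75.6 in LP WT (1.65, SE 0.44). Nlrc5, the coactivator, was at 125, 64.3 and 61.1 CPM in LP KO and 12.6, 26.7 and 36.7 in LP WT (1.70, SE 0.50). Mouse 2 was the lowest LP KO library for H2-K1, H2-D1, B2m and Tap1.

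In basal cells B2m, Tap1 and H2-K1 separated the genotypes, and H2-D1 and Nlrc5 did not. B2m CPM was 2181, 966 and 1770 in basal KO and 424, 727 and 611 in basal WT (log2 fold change 1.48, SE 0.37). Tap1 was at 261, 106 and 198 CPM in basal KO and 33.4, 85.1 and 42.7 in basal WT (1.81, SE 0.44). Both genes separated KO from WT. H2-K1 separated as well, with 1721, 971 and 1452 CPM in basal KO against 908, 701 and 805 in WT (0.78, SE 0.30). H2-D1 overlapped, because KO mouse 1 stood at 2809 CPM and KO mice 2 and 3 at 1060 and 985, within the WT values of 559, 1126 and 1005 (0.85, SE 0.43; 0.19 without KO replicate 1). Nlrc5 overlapped by a narrow margin, with 316, 185 and 198 CPM in basal KO and 186, 94.4 and 47.9 in WT (1.09, SE 0.48).

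In ML cells the fitted class I values were nearest to 0, Nlrc5 aside. B2m was at 2597, 1446 and 1443 CPM in ML KO and 1143, 1919 and 1827 in ML WT (log2 fold change 0.17, SE 0.36), and H2-D1 at 2196, 1387 and 988 against 1276, 1846 and 1581 (-0.04, SE 0.42). The KO and WT values of both genes interleaved, and without KO replicate 1 the fitted values were -0.17 and -0.40. H2-K1 was at 1594, 1153 and 1473 CPM in ML KO and 1143, 847 and 1047 in ML WT (0.47, SE 0.30), with KO mouse 2 close to WT mouse 1. Tap1 (0.69, SE 0.43) and Nlrc5 (1.27, SE 0.50) separated too, with Nlrc5 at 108, 50.3 and 78.2 CPM in ML KO and 44.5, 39.0 and 15.8 in ML WT.

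Class II genes had higher fitted values in LP and ML cells than in basal cells, from low WT levels; as for class I, differences between populations are described and not tested for these genes. Cd74, the invariant chain gene, which lies on chromosome 18, was at 132, 23.5 and 181 CPM in LP KO mice 1, 2 and 3 and at 5.68, 5.56 and 6.56 in LP WT, a log2 fold change of 4.23 (SE 0.94). In ML cells it was at 52.5, 5.58 and 19.0 CPM in KO and 0.475, 1.501 and 1.58 in WT, also 4.23 (SE 1.06), from 58 counts in the 3 WT libraries together. All KO libraries lay above all WT libraries in both luminal populations, and KO mouse 2 was the lowest in each. In basal cells Cd74 was at 173, 27.7 and 43.1 CPM in KO and 18.4, 37.7 and 68.8 in WT (0.97, SE 0.80). Only KO mouse 1 exceeded the basal WT range, and without it the fitted basal value was -0.23.

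The I-A chains followed Cd74 in part. H2-Aa was at 15.6, 2.20 and 24.6 CPM in LP KO and 1.97, 1.33 and 0.674 in LP WT (log2 fold change 3.52, SE 1.06). H2-Ab1 was at 18.6, 3.18 and 39.3 CPM in LP KO and 3.21, 1.89 and 5.76 in LP WT (2.42, SE 0.75). KO mouse 2 separated H2-Aa by a narrow margin and fell within the WT range for H2-Ab1. In ML cells H2-Ab1 was at 9.03, 1.74 and 5.54 CPM in KO and 0, 0.501 and 0.428 in WT (3.73, SE 1.10), the WT libraries holding 16 counts in all. H2-Aa in ML rested on 30 WT counts and gave 2.68 (SE 1.19). In basal cells both I-A chains overlapped between the genotypes, H2-Aa at 0.25 (SE 0.82) and H2-Ab1 at 0.91 (SE 0.68), and without KO replicate 1 they stood at -1.02 and 0.06.

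H2-Eb1, the I-E beta chain, did not follow the I-A chains. It was at 1.17, 0.781 and 29.1 CPM in LP KO and 1.97, 0.445 and 0.245 in LP WT, and at 0.496, 0.249 and 3.20 CPM in ML KO against 0.9503, 0.918 and 0.342 in ML WT. KO mouse 3 alone stood above the WT range in both luminal populations. The LP log2 fold change of 3.77 (SE 1.42) became 0.34 without that library, and the ML value of 1.12 (SE 1.65) became -1.0. Ciita, the class II coactivator, was low everywhere but separated the genotypes in all 3 populations: 3.57, 2.19 and 2.73 CPM in basal KO against 1.87, 1.40 and 0.942 in WT, 2.38, 1.39 and 1.38 against 0.494, 0.445 and 1.17 in LP, and 2.18, 0.883 and 1.11 against 0.475, 0.584 and 0.171 in ML. Its log2 fold changes were 0.94 (SE 0.41), 1.11 (SE 0.51) and 1.81 (SE 0.63).

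Counted over both classes, the fitted log2 fold change was above 0 for all 10 genes in basal and LP cells and for 9 in ML, where H2-D1 was the exception (47.8%, 51.1% and 51.3% of all genes tested were above 0). All 10 passed the filter on low counts. At an adjusted p under 0.05 in edgeR's quasi-likelihood test, the test that covers all 16466 genes, 2 of the 10 passed in basal cells (B2m, Tap1), 8 in LP (all but H2-Eb1 and Ciita) and 2 in ML (Cd74, H2-Ab1), all higher in KO; the share of all genes that passed as higher was 2.96%, 8.28% and 11.8%. Because the genes were picked on these contrasts, nothing is read from those counts. The median log2 fold change of the 5 class I genes was 1.09 in basal, 1.70 in LP and 0.47 in ML, and that of the 5 class II genes 0.91, 3.52 and 2.68, beside -0.02, 0.02 and 0.02 over all genes tested. The class II median was 0.06 in basal cells without KO replicate 1, 0.52 there with the replicate number as a block, and 1.49 in LP without KO replicate 3. The LP count of 8 was 4 without KO replicate 3, 3 without KO replicate 1 or WT replicate 1, and 2 without WT replicate 2. With 1 library left out, the basal count of 2 class I genes ranged from 0 to 2 and the ML count of 2 class II genes from 0 to 3. KO lay above WT without overlap for 3 class I and 1 class II genes in basal cells (10.8% of all genes tested), 5 and 3 in LP (17.7%) and 3 and 4 in ML (21.6%).

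**Figure D2:**
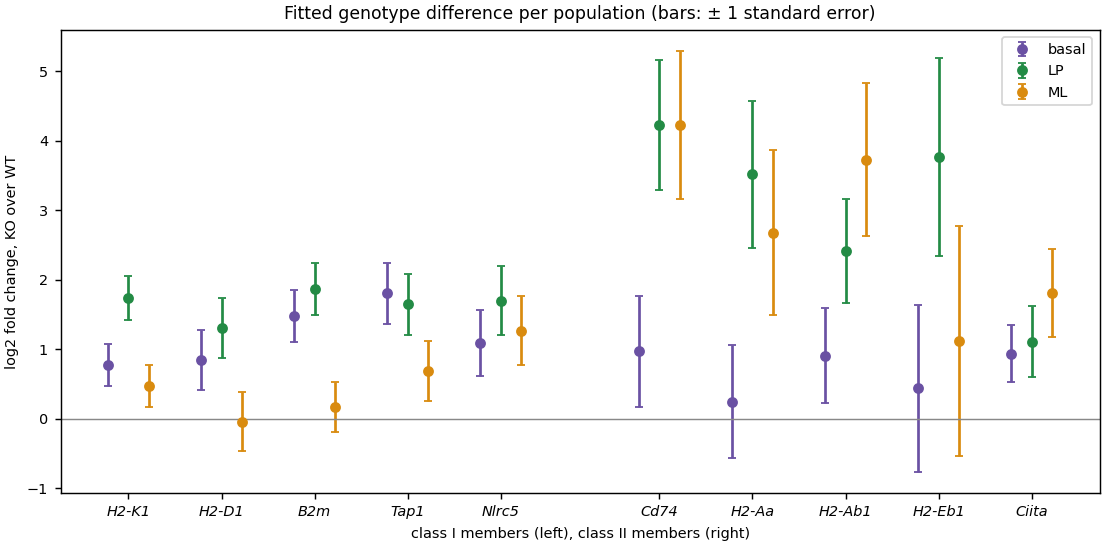
Fitted log2 fold change of KO over WT for the 10 genes in basal (purple), LP (green) and ML (orange) cells, with bars of 1 standard error, class I genes at the left and class II genes at the right. Class I values in ML lie closest to 0 except for Nlrc5, while Cd74, H2-Aa and H2-Ab1 lie at 2.42 or more in both luminal populations.

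The libraries that were high in one class were mostly high in the other. Summed over the 5 class I genes, KO mice 1, 2 and 3 had 7289, 3288 and 4602 CPM in basal, 8837, 4706 and 9321 in LP and 6599, 4107 and 4097 in ML. Summed over the 4 class II chain genes (Cd74, H2-Aa, H2-Ab1 and H2-Eb1), the same mice had 235, 44.6 and 66.4 CPM in basal, 168, 29.6 and 274 in LP and 71.7, 8.61 and 32.0 in ML. The library with the highest class I sum also had the highest class II sum in 5 of the 6 groups, and the lowest was shared in 4 of 6. Across the 18 libraries, which come from 6 mice and share their depth and mouse, the mean standardised log2 CPM profiles of the 2 classes had Pearson r 0.40 and Spearman rho 0.38, and 0.48 and 0.41 after the group means were taken out. Between populations the classes parted: ML WT libraries, at 3676 to 4712 CPM, had the highest WT class I sums and, at 1.43 to 3.92 CPM, the lowest class II sums.

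Leukocytes in a sorted gate would bring class II transcripts with them, so leukocyte markers were read beside the class II genes. The panel had 28 genes, of which 11 passed the low-count filter, and Ptprc, the gene of the pan-leukocyte surface protein CD45, was not among those 11. Ptprc counts in mice 1, 2 and 3 were 4, 15 and 5 in basal KO against 2, 7 and 3 in basal WT. They were 8, 6 and 33 in LP KO against 1, 0 and 0 in LP WT, and 2, 2 and 14 in ML KO against 0, 1 and 6 in ML WT. KO mouse 3 had the most Ptprc counts of its group in LP and ML cells, and KO mouse 2 in basal cells. These counts are not scaled for depth, and the basal library of KO mouse 2 was the deepest of all, at 39194603 counts. In ML, KO mice 1 and 2 had the same Ptprc count in libraries of 8760092 and 30546608 counts. The summed panel was at 13.4, 13.5 and 19.6 CPM in basal KO against 16.3, 19.3 and 19.4 in WT, at 20.4, 15.4 and 71.3 in LP KO against 21.3, 12.1 and 9.38 in WT, and at 9.32, 5.63 and 15.3 in ML KO against 5.23, 6.01 and 5.73 in WT. LP KO replicate 3 stood apart from the other 17 libraries.

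Of the 11 tested markers, none passed in basal cells in edgeR's test, where none had an unadjusted p under 0.05 and DESeq2 called none of the pan-leukocyte or myeloid genes. In LP KO 4 rose, beside 8.28% of all genes, and in ML KO 2 rose, beside 11.8%, a share near which 2 of 11 lie. The LP genes were Laptm5 (log2 fold change 3.83, SE 1.21, edgeR adjusted p = 0.033), Coro1a (3.74, SE 1.20, adjusted p = 0.038), Csf1r, the receptor of a macrophage growth factor (2.44, SE 0.56, adjusted p = 0.0076), and Cd52, a lymphocyte surface antigen (adjusted p = 0.0048). Cd52 was at 0.834, 0.362 and 1.65 CPM in LP KO and had no count in the 3 LP WT libraries. In ML, Cd52 (adjusted p = 0.046) and S100a8, a granulocyte gene (adjusted p = 0.037), rose from 1 and 0 WT counts. S100a8 had no count in ML WT but was counted in LP WT. Whether its reads in ML KO come from leukocytes was not tested. The LP call of Cd52 held with any library left out, but 1 of the 3 pan-leukocyte calls was left without KO replicate 3 or any of the WT replicates, and no pan-leukocyte or myeloid marker was called with the 6 LP libraries alone, a fit in which Cd52 was not tested. In ML, Cd52 lost its call with any library left out (adjusted p up to 0.13), and S100a8 with any but KO replicate 2 left out (up to 0.16). Among the 28 markers 10, including Cd3e and Flt3, had no count in any LP WT library, and 3 had none in LP KO; in ML 14 had none in WT and 6 in KO. LP WT libraries, at 9285139 to 16167003 counts, were shallower than LP KO libraries, at 22416572 to 32724291.

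Class II sums and panel sums ranked the libraries alike in only part of the groups. In LP KO mice 1 and 2 the panel sum, 20.4 and 15.4 CPM, lay within the WT range of 9.38 to 21.3, while Cd74, at 132 and 23.5 CPM, lay above the WT maximum of 6.56. The 5 pan-leukocyte genes of the panel alone were at 2.50, 1.20 and 9.29 CPM in LP KO and 0.370, 0.222 and 0.245 in LP WT, so that subset did separate. In basal cells KO mouse 1 had the highest class II sum of the 6 libraries, 235 CPM, and the lowest panel sum, 13.4 CPM. Counted as class II chain counts per panel count, KO mice 1, 2 and 3 stood at 8.23, 1.93 and 3.85 in LP and WT mice at 0.601, 0.762 and 1.41, and in ML KO was at 7.69, 1.53 and 2.09 and WT at 0.273, 0.653 and 0.545. By this ratio every KO library lay above every WT library in both luminal populations. In basal cells KO was at 17.6, 3.32 and 3.39 and WT at 2.05, 3.46 and 4.67, so only KO mouse 1 lay outside the WT range. The LP difference in this ratio depended on the denominator. In LP WT the panel sum was mostly myeloid and dendritic markers, at a mean of 12.1 CPM against 0.279 for the pan-leukocyte genes. Among the 7 tested myeloid and dendritic markers, the largest log2 fold change of LP WT over basal WT was 5.08, beside a median of -1.01. Whether every marker of the panel follows leukocytes in LP cells was not tested. With the pan-leukocyte genes alone as denominator, the LP ratio was not higher in KO than in WT, as given with the processing below. The highest library was the same for class II and the panel in 3 of 6 groups and the lowest in 4 of 6, against 5 and 4 for class II and class I. For Ptprc itself, pooled class II chain counts per Ptprc count were 288 (95% interval 193 to 449) in basal KO and 289 (165 to 560) in basal WT. In LP they were 285 (214 to 388) in KO and 403 (71.9 to 15960) in WT, where the ratio rests on 1 Ptprc count, and in ML 103 (64.7 to 173) in KO against 18.4 (8.69 to 46.8) in WT. These exact Clopper-Pearson intervals cover counting error only. The part of leukocytes in the class II difference was not tested.

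**Figure D3:**
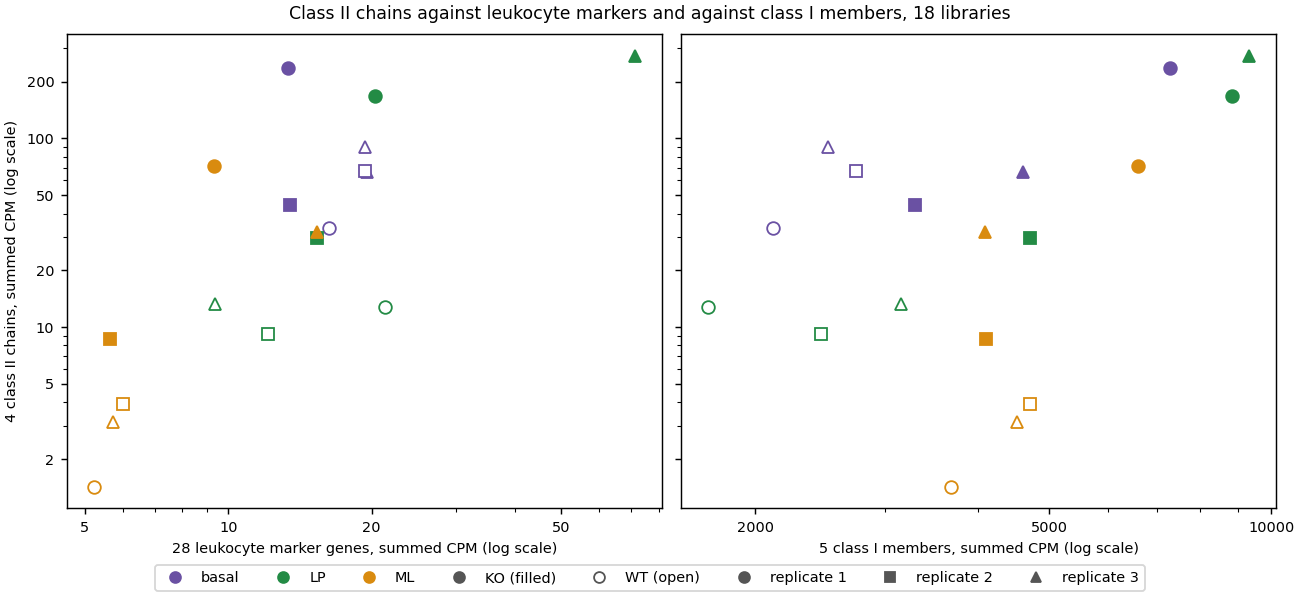
Summed CPM of the 4 class II chain genes against the summed CPM of 28 leukocyte markers (left) and of the 5 class I genes (right), on log axes, 1 point per library; colour marks the population, filled points KO, open points WT and shapes the replicate. LP KO replicate 3 is far right at 71.3 CPM of leukocyte markers, whereas basal KO replicate 1 has the second highest class II sum at 13.4 CPM of markers.

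Epithelial markers also differed between the genotypes and stand beside the ML values above. The 6 basal markers summed to 461 to 529 CPM in ML KO, against 13.2 to 15.3 in WT, 5 of the 6 passing as higher, and all 4 luminal progenitor markers passed as higher in ML KO (11.8% of all genes did). ML KO replicate 1, the ML library with the highest class II sum, had 711 CPM of mature luminal markers against 2849 and 3280 in the other KO mice and 5757 to 6962 in WT. Fibroblast markers were at 344 to 567 CPM in basal libraries of either genotype and 12.7 to 92.3 in LP. In ML they were at 79.6 to 373 CPM in KO and 48.8 to 271 in WT, which overlapped. The part of these shifts in the class I and class II values was not tested. Trp53 fell in KO in all 3 populations, by 1.72 (SE 0.33, edgeR adjusted p = 0.0034) in basal, 3.60 (SE 0.35, adjusted p = 5e-06) in LP and 1.57 (SE 0.33, adjusted p = 0.0023) in ML on the log2 scale. A difference in Brca2 was not detectable, with log2 fold changes of -0.74 (SE 0.49), -0.50 (SE 0.47) and 0.19 (SE 0.49). The Brca2 counts thus do not show the labelled deletion. Loss of 1 of 2 copies gives a log2 fall of 1. The fitted fall of Trp53 exceeded that in all 3 populations, and by the most in LP. Which part of each gene was deleted, and whether the counted reads lie outside it, was not analysed here, so these counts do not check the labels.

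Beyond the 10 genes, 60 genes of the pathway were read from 5 lists, and 57 could be tested. These lists were chosen with earlier results of these data known, so the counts below carry that selection. In LP 17 of the 57 rose and none fell (14.9% of all genes tested passed, 8.28% as higher and 6.63% as lower). In basal cells 2 rose and none fell (3.15% passed in either direction), and in ML 2 rose and 2 fell (15.2%, with 11.8% higher and 3.5% lower). The LP count was 3 when the 6 LP libraries were fitted alone, 7 without KO replicate 3, 10 without WT replicate 1 and 6 without WT replicate 2. The basal count of 2 was 0 without KO replicate 1 or 3 and 1 without any of the WT replicates, and the ML count of 4 was 0 without KO replicate 1, 1 without KO replicate 3 or WT replicates 2 or 3, and 2 without KO replicate 2.

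Of 12 genes that make and load class I peptides, 6 rose in LP (8.28% of all genes did), none in basal cells (2.96%) and none in ML (11.8%). In edgeR's test 3 of the 12 had an unadjusted p under 0.05 in basal cells and 0 in ML, and DESeq2 called 0 in both. None of the 12 differed in its genotype effect between LP and basal cells in edgeR's test (4 had an unadjusted p under 0.05, and DESeq2 called 0). Psmb8, a catalytic subunit of the immunoproteasome, was at 226, 114 and 280 CPM in LP KO and 39.6, 63.5 and 85.9 in LP WT (log2 fold change 1.71, SE 0.35, edgeR adjusted p = 0.0035). Its partner Psmb9 rose by 1.98 (SE 0.57, adjusted p = 0.027), and Tapbp, which bridges the transporter to class I molecules, by 1.10 (SE 0.24, adjusted p = 0.0054). Psmb10, Psme1 and Psme2, the remaining immunoproteasome and activator subunits of the list, rose by 1.02 (adjusted p = 0.040), 0.87 (adjusted p = 0.036) and 1.01 (adjusted p = 0.018). The median over the 12 was 0.05 in basal, 0.66 in LP and -0.11 in ML. Psmb8 and Psmb9 had basal values of 1.13 (adjusted p = 0.10) and 1.77 (adjusted p = 0.16), with every KO library above every WT library. The genotype difference of Tapbp was greater in LP than in ML by 1.22 (SE 0.34, adjusted p = 0.035), and that of Psmb8 by 1.55 (SE 0.49, adjusted p = 0.063, and 0.012 with the mouse as a block). The LP count of 6 was 1 with the 6 LP libraries alone, 3 without KO replicate 1, and 2 without KO replicate 3, WT replicate 1 or WT replicate 2. Psmb8 passed in LP in every alternative (adjusted p at most 0.037), whereas with LP libraries alone Psmb9, Tapbp and Psme2 had 0.074, 0.072 and 0.099.

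Other class I heavy chains, which include the nonclassical Qa and M3 molecules, gave 1 rise in basal cells (2.96% of all genes rose), 4 in LP (8.28%) and 1 fall in ML (3.5% fell) among 13 genes, and nothing is read from the single calls as a count. H2-Q7 was at 299, 158 and 538 CPM in LP KO and 11.7, 46.8 and 89.7 in LP WT (log2 fold change 2.73, SE 0.58, edgeR adjusted p = 0.0058). H2-Q6 rose in LP by 1.69 (SE 0.46, adjusted p = 0.020) and in basal cells by 2.02 (SE 0.47, adjusted p = 0.020), and H2-Q7 in basal cells had 2.07 (SE 0.58, adjusted p = 0.065). H2-Q4 and H2-M3, which presents formylated peptides, rose in LP by 1.28 (SE 0.36, adjusted p = 0.023) and 1.51 (SE 0.41, adjusted p = 0.020). Mr1, which presents vitamin B metabolites to MAIT cells, fell in ML by 1.09 (SE 0.27, adjusted p = 0.0085; up to 0.079, without KO replicate 1 or WT replicate 2). The LP call of H2-Q7 held in every alternative (adjusted p at most 0.044). H2-Q6, H2-Q4 and H2-M3 lost their LP calls with LP libraries alone and without KO replicate 3 or WT replicate 2, where the list's count of 4 became 1; H2-Q6 and H2-Q4 did so without KO replicate 1, H2-Q4 without WT replicate 1 and H2-M3 without WT replicate 3 as well (adjusted p up to 0.086 for H2-Q6 and 0.10 for the other genes). The basal call of H2-Q6 was lost without KO replicates 1 or 3 or WT replicates 1 or 2 (up to 0.11). H2-K1, H2-D1 and the H2-Q genes are close in sequence, so reads may have been split between them in counting and their separate values are uncertain.

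Of the class II loading and costimulation list 10 of 13 genes could be tested; none passed in basal cells (2 had an unadjusted p under 0.05 in edgeR's test, and DESeq2 called 0), 4 rose in LP (8.28% of all genes did), and in ML 1 rose and 1 fell (11.8% and 3.5% of all genes). H2-DMa, a chain of the peptide exchange factor of class II, was at 4.25, 2.09 and 4.91 CPM in LP KO and 1.60, 0.556 and 0.307 in LP WT (log2 fold change 2.37, SE 0.56, edgeR adjusted p = 0.0083). Ctss, the protease that trims the invariant chain, rose by 2.80 in LP (SE 0.74, adjusted p = 0.014, 0.11 without KO replicate 3 and 0.053 without WT replicate 2) and by 3.34 in ML (SE 1.09, adjusted p = 0.040), where it was at 3.67, 0.580 and 2.49 CPM in KO and 0, 0.250 and 0.214 in WT. The genotype difference of Ctss was greater in LP than in basal cells by 3.62 (SE 1.09, adjusted p = 0.13, and 0.0086 with the mouse as a block) and greater in ML than in basal cells by 4.16 (SE 1.37, adjusted p = 0.085, and 0.0031 with the block). Cd40, the costimulatory receptor, rose in LP by 2.89 (SE 0.73, adjusted p = 0.011). Lgmn, a lysosomal protease, rose in LP by 0.77 (SE 0.21, adjusted p = 0.020) and fell in ML by 0.68 (SE 0.21, adjusted p = 0.029). The LP count of 4 was 0 with the 6 LP libraries alone, 2 without KO replicate 3 and 1 without WT replicate 2. In LP the adjusted p rose to at most 0.066 for H2-DMa (above 0.05 without WT replicate 3) and Cd40 (above 0.05 without WT replicate 2), and to 0.11 for Lgmn (above 0.05 without KO replicate 3, WT replicate 1 or WT replicate 2). In ML the call of Ctss was lost with any library but KO replicate 2 left out (up to 0.16), and that of Lgmn with any but WT replicate 1 (up to 0.14).

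Factors that sit on MHC promoters were read from a list of 7. Of these 7 genes of the RFX, CREB and NF-Y complexes, none passed in basal cells (1 had an unadjusted p under 0.05 in edgeR's test, and DESeq2 called 0), and 1 each rose in LP and ML, near the 8.28% and 11.8% of all genes, so the counts show nothing about the list. Nfyc, an NF-Y subunit that binds the Y box marked as ATTGG in the sequences above, rose in LP by 0.98 (SE 0.23, edgeR adjusted p = 0.0084), and Rfxap, an RFX subunit, in ML by 1.02 (SE 0.33, adjusted p = 0.044). Nfyc had 0.075 with LP libraries alone, and Rfxap lost its call with ML libraries alone and with any library but WT replicate 2 left out (up to 0.17). The list's median log2 fold change was -0.16, -0.13 and -0.11 in basal, LP and ML.

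Of 15 interferon receptors, kinases and transcription factors, 1 rose in basal cells (2.96% of all genes did), 2 in LP (8.28%) and none in ML (11.8%; 0 had an unadjusted p under 0.05 in edgeR's test, and DESeq2 called 0). These counts lie near the shares of all genes. The basal call was lost with basal libraries alone and without KO replicates 1 or 3 or WT replicates 1 or 3. Stat2, which carries type I interferon signals to the nucleus, rose in LP by 0.97 (SE 0.33, edgeR adjusted p = 0.049, and 0.058 with RLE scaling; lost with LP libraries alone and with any library but KO replicate 2 left out, up to 0.15), and its genotype difference was greater in LP than in ML by 1.15 (SE 0.45, adjusted p = 0.14, and 0.020 with the mouse as a block). Irf1, a direct activator of class I promoters, had log2 fold changes of 0.08 (SE 0.37), 0.00 (SE 0.37) and 0.17 (SE 0.38) in basal, LP and ML.

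**Figure D4:**
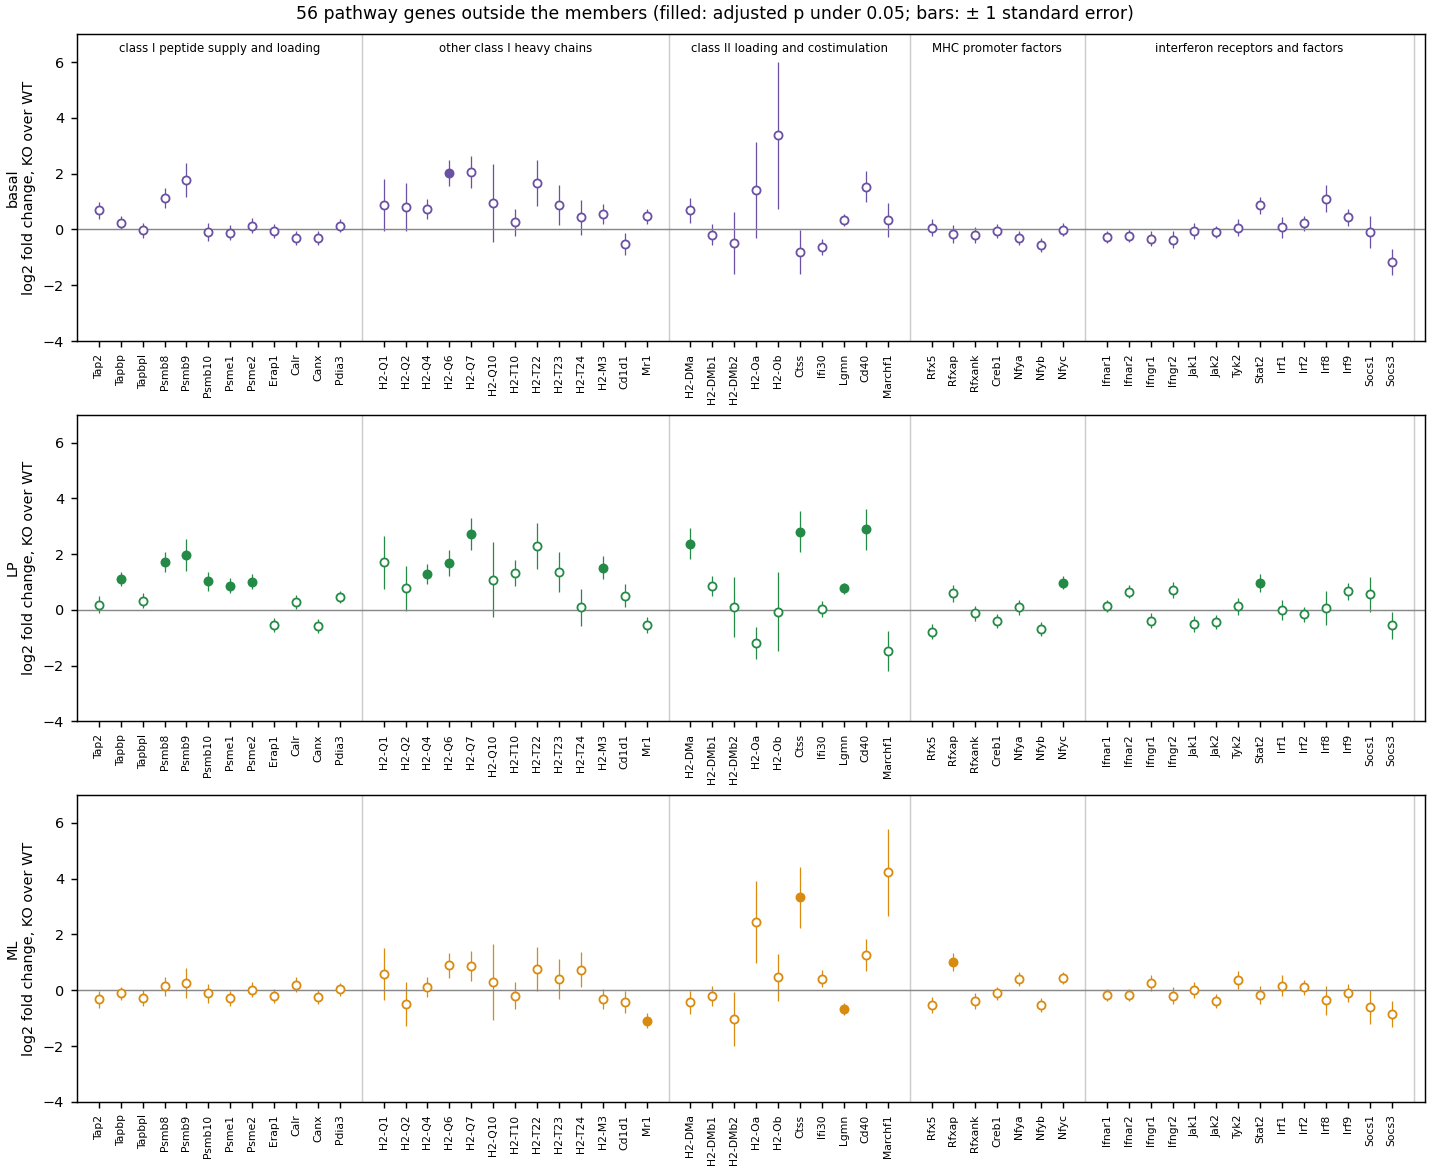
Fitted log2 fold change of KO over WT, with bars of 1 standard error, for 56 of the 57 tested pathway genes in basal, LP and ML cells (top to bottom), grouped by list; filled points have an edgeR adjusted p under 0.05. The LP panel holds 16 filled points, all above 0, the basal panel 1, and the ML panel 2 above and 2 below 0.

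The counted mix of heavy chain transcripts differed between mice of 1 genotype. H2 genes vary between mouse strains, the labels do not give the H2 haplotype of each mouse, and how well reads of each allele were counted was not tested, so these ratios describe counts. H2-D1 counts per 100 H2-K1 counts were 163, 119 and 138 in basal, LP and ML cells of KO mouse 1, 109, 83.8 and 120 in KO mouse 2, and 67.8, 39.4 and 67.1 in KO mouse 3. In WT they were 61.5, 68.7 and 112 in mouse 1, 161, 132 and 218 in mouse 2, and 125, 96.6 and 151 in mouse 3. The order of the 3 mice of a genotype was the same in all 3 populations, for KO and for WT. Among the other heavy chains, H2-Q1, H2-Q2, H2-Q10 and H2-T22 also kept 1 order of mice in all populations in both genotypes, as did 1.02% of the 16466 genes tested; these 4 were singled out after their values were seen. H2-Q10 was at 27.2, 63.7 and 35.3 CPM in basal, LP and ML of KO mouse 1 and at 0.960, 1.61 and 1.23 in KO mouse 3. H2-T22 ran the other way, at 15.8, 33.8 and 21.9 CPM in KO mouse 1 and 77.1, 253 and 109 in KO mouse 3.

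The counted class II chain mix, to which the same limit applies, differed between the same mice. H2-Eb1 counts per 100 H2-Ab1 counts were 2.65, 6.26 and 5.50 in basal, LP and ML of KO mouse 1, 19.9, 24.6 and 14.3 in KO mouse 2 and 53.8, 74.0 and 57.9 in KO mouse 3. The KO mouse with the least H2-D1 per H2-K1 thus had the most H2-Eb1 per H2-Ab1 in each population. In basal WT the values were 47.0, 6.60 and 21.9 in mice 1, 2 and 3, and WT mouse 1 again combined the lowest H2-D1 share with the highest H2-Eb1 share. In luminal WT libraries the ratio rests on few counts, 24 H2-Eb1 and 137 H2-Ab1 in LP and 25 and 16 in ML, and its order of mice was not that of basal cells. The H2-Eb1 share of KO mouse 3, the highest of the KO mice, was thus high in basal cells as well, where WT mouse 1 came near it at 47.0.

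**Figure D5:**
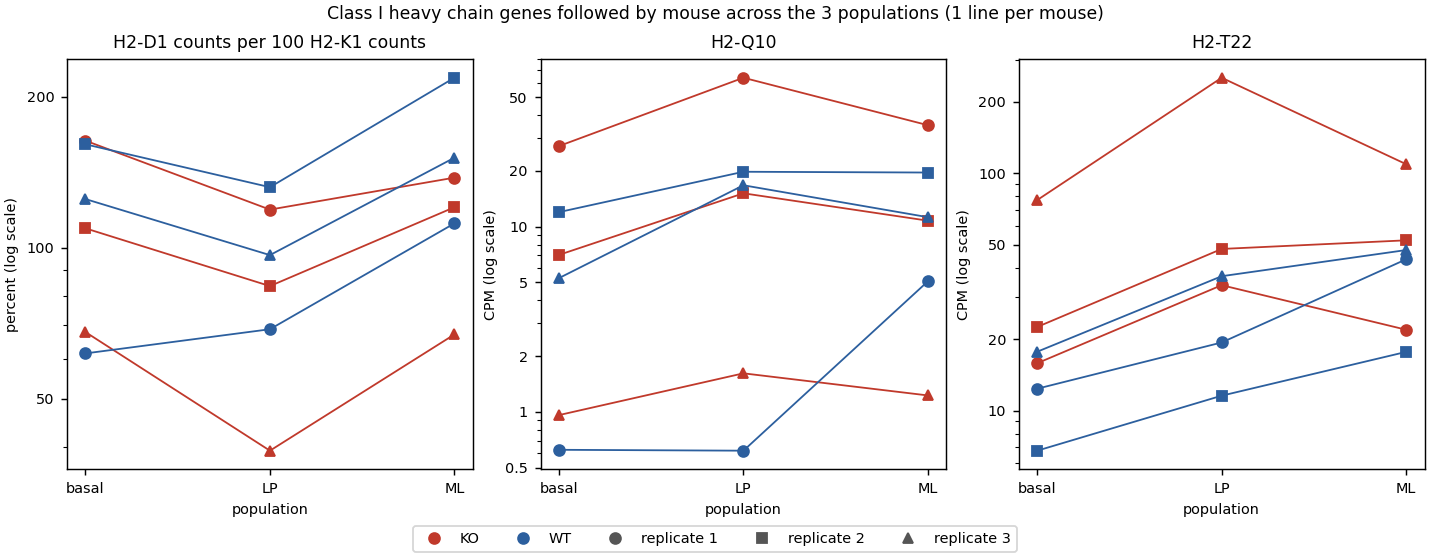
H2-D1 counts per 100 H2-K1 counts (left), H2-Q10 CPM (middle) and H2-T22 CPM (right) in basal, LP and ML cells on log axes, with 1 line per mouse, red for KO and blue for WT, and shapes for the replicate. Within each genotype the lines keep their order across the 3 populations, with KO mouse 3 lowest of the KO mice for the first 2 quantities and highest for H2-T22.

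Across all genes tested, the profiles most like class I and most like class II were not the same genes. With the mean standardised log2 CPM of H2-K1, H2-D1, B2m and Tap1 over 18 libraries, the highest Pearson r belonged to Xaf1 (0.94), Mitd1, H2-Q4, H2-Q7 and Gbp2. With the mean over the 4 class II chains they were Gstm1 (0.91), Ppp1ccb, Gm12070, Tgtp2 and Ppp1cc. After the 6 group means were taken out, Trafd1 (0.94), Ifit3, Psmb8, Piwil4 and Parp12 led for class I and Acyp2 (0.92), Ctss (0.87), S100g, Mdk and Hspb11 for class II. Xaf1 was at 54.1, 32.1 and 67.7 CPM in LP KO and 2.71, 8.01 and 9.81 in LP WT. Of the 11 tested leukocyte markers, 8 had a higher r with the class II profile and 3 with the class I profile. The 3 were Csf1r (0.48 with class II and 0.66 with class I), Itgam (-0.07 and 0.48) and Itgax (0.08 and 0.39). At the other end, Lyz2 had r 0.82 with class II, rank 62 of 16466, and 0.15 with class I, and Laptm5 had 0.81, rank 87, and 0.25. Ptprc, below the count filter, has no rank.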

How the data were processed

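RNA was extracted with the miRNeasy micro kit and made into Illumina TruSeq RNA v2 libraries, per the labels' protocols; that kit does not mark strand, so overlapping and antisense genes share reads. The deposited table holds raw counts per gene with gene lengths, from featureCounts on mm10 per the submitters' processing notes. Aligner, annotation and strand option were not given in the sources used here. All 18 single-library files equalled the table. Of 27179 Entrez identifiers, 25275 paired with a symbol in the RefSeq-based name table; those without one held 1.6% of counts.

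Counts were filtered with filterByExpr (16466 genes kept) and TMM-scaled (factors 0.832 to 1.19), and all 18 libraries were fitted with edgeR 4.0.16 (quasi-likelihood, 1 mean per group, Benjamini-Hochberg over all genes tested, threshold 0.05) in R 4.3.3; DESeq2 1.42.0 was an alternative. SE is the log2 fold change over the root of F. The procedure was tested on simulated counts drawn independently for each library. They held no effect of the mouse, so that test does not cover libraries that share 1 mouse. Correlations used log2 CPM with a prior count of 2.

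Titles call the replicates biological and numbers in the descriptions tie the 3 libraries of a mouse together. Deviations from group means correlated at 0.095 to 0.335 between libraries of 1 mouse, above 0.1 in 17 of 18 pairs. The main fit has no block and does not use this pairing. The mouse was the block only in an alternative fit for differences between populations, named where its values are given. KO and WT mice that share a replicate number are different animals. No 2 libraries were repeats of each other (chi-square per degree of freedom at least 23.9).

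The 10 genes, the 5 pathway lists and the marker lists were chosen with earlier results of these data known. Named pathway genes are those of lowest p, up to 4 per list and comparison and 2 per difference of genotype effects; Psmb10, Psme1, Irf1, Laptm5, Coro1a, Lyz2, Itgam and Itgax and the genes followed by mouse were added after their values were seen; 2 genes of the lists are counted with their list but not reported singly here. Alternatives were RLE scaling, no filter, DESeq2, the 6 libraries of a population alone, replicate blocks, other leukocyte denominators, and each library or mouse left out.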

Additional observations from a re-analysis of the deposited data

Results flagged for a closer look

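The genotype effect (KO against WT) differed between populations for 6 of the named pathway genes and for Trp53. This is by edgeR's test of the difference in the main fit, without the mouse as a block, with adjusted p over all genes. Of all genes, 1.22% were greater and 5.15% lesser in LP than in ML, and 1.03% lesser in ML than in basal cells. For class I genes, the effect in LP exceeded that in ML by 1.22 on the log2 scale for Tapbp (SE 0.34, adjusted p = 0.035) and by 1.83 for H2-M3 (SE 0.54, adjusted p = 0.049), and the effect in ML lay below that in basal cells for Mr1 (-1.56, SE 0.38, adjusted p = 0.016). For class II genes, LP exceeded ML by 2.80 for H2-DMa (SE 0.70, adjusted p = 0.018) and by 1.45 for Lgmn (SE 0.30, adjusted p = 0.0039), while Lgmn in ML lay below basal cells by -1.01 (SE 0.29, adjusted p = 0.047). Marchf1, a ubiquitin ligase that removes class II from the surface, differed by -5.71 between LP and ML (SE 1.67, adjusted p = 0.047); its ML WT libraries were at 0, 0.083 and 0 CPM, so that size depends on the fitted prior. The Trp53 effect was more negative in LP than in ML by -2.03 (SE 0.46, adjusted p = 0.0098). For Marchf1 and Trp53, fits of these differences with 1 mouse left out are not given here. With 1 mouse left out, the adjusted p rose above the threshold in at least 1 case, to at most 0.13 for Tapbp, 0.23 for H2-M3, 0.12 for Mr1, 0.18 for H2-DMa and 0.26 for Lgmn between ML and basal cells; the Lgmn difference between LP and ML passed in every case.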

How the results depend on the processing

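For KO against WT, genes called were 519 in basal (260 to 505 with 1 library left out), 2456 in LP (788 with the 6 LP libraries alone, 1012 to 2558 with 1 left out) and 2511 in ML (1622 to 2351). Genes whose genotype effect differed were 180 for LP against basal (559 by DESeq2, 491 with the mouse as a replicate block, 30 to 132 with 1 mouse left out), 910 for ML against basal (1437, 1480, 509 to 843) and 1049 for LP against ML (1727, 1814, 511 to 833). In WT, 6106 genes differed between LP and basal (3973 to 5333) and 5548 between LP and ML (3443 to 4155). The replicate number as a block, which joins different mice, gave 609, 3303 and 3168 calls in basal, LP and ML. Pathway genes called were 2 in basal (0 to 3), 17 in LP (3 with LP libraries alone, 6 to 22) and 4 in ML (0 to 3). The class II median was 0.91 in basal (0.06 to 1.12) and 3.52 in LP (1.49 to 4.04). With 0.5 added to the denominator count, the log2 ratio of KO to WT in class II chains per Ptprc was 0.02 in basal (1.20 with myeloid markers as denominator; -1.16 to 1.00 with 1 library left out), 0.07 in LP (-0.29 with pan-leukocyte and 2.21 with myeloid markers; -1.08 to 1.18) and 2.54 in ML (1.42 to 3.74); with no added count, an alternative chosen after seeing the data, it was -0.01, -0.50 and 2.48; it reversed in basal without KO replicate 1 (-1.16) or WT replicate 2 (-0.05), and in LP without KO replicate 1 (-0.18) or WT replicate 1 (-1.08). The cause was not tested. Few counts limit the class II chains in ML WT and Ptprc everywhere, and 3 mice a genotype limit every comparison. The p-values of the main fit rest on a spread estimated over all 18 libraries together, with the 3 libraries of a mouse treated as independent.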

Other observations

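Among the genes whose profile was most like that of class I once group means were taken out was Ifit3, an interferon-induced gene. It was near absent in WT and present in every KO library. Ifit3 was at 64.0, 15.7 and 32.3 CPM in basal KO mice 1, 2 and 3 and 0.728, 2.26 and 1.79 in basal WT, and at 50.8, 27.0 and 85.6 in LP KO and 0.247, 2.11 and 3.13 in LP WT. In ML KO it was at 15.1, 4.91 and 6.80 CPM, and the 3 ML WT libraries had no Ifit3 count. ML thus separated the genotypes for Ifit3 although B2m and H2-D1 interleaved there. KO mouse 2 was the lowest KO mouse in all 3 populations, as it was for Cd74. Tgtp2, an interferon-induced GTPase gene among those most like class II, was at 8.43, 3.06 and 7.53 CPM in basal KO and 0.832, 2.15 and 1.13 in WT, and at 3.46, 1.45 and 3.82 in LP KO and 0.370, 0.334 and 0.184 in WT. These genes were picked by their likeness to the 10, so the values are a description without a test.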
